A study of Homo sapiens with 8 samples.

Results

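The 6227 regions described here were stretches of the G401 genome with a called ATAC-seq peak before SMARCB1 was induced and none on days 1, 3 and 7 of its induction. They were found by joining the 4 deposited peak lists wherever peaks shared at least 1 bp and keeping the joined regions whose only peak came from the day 0 list. They made up 4.26% of all 146099 merged regions, and 7.92% of the 78579 regions with a day 0 peak. Each was a single day 0 peak. The regions were chosen by the presence or absence of a call in each list, so their counts and their day 0 heights are a description and carry no test. A region without a peak is one below the limit of the peak caller, which does not make it inaccessible.

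ATAC-seq uses a transposase that cuts and tags DNA where nucleosomes leave it free, so piled-up fragments mark active promoters, enhancers and other open sites. SMARCB1 is a core subunit of SWI/SNF, the ATP-driven remodelling complex that slides and evicts nucleosomes, and its loss is the defining lesion of rhabdoid tumours. G401 is an established rhabdoid tumour line of the kidney that lacks SMARCB1. Known work on SWI/SNF places much of its effect at enhancers, where transcription factors of the AP-1 family bind.

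All cells carried a SMARCB1 gene that doxycycline switches on and were grown in serum free of tetracycline. Those labelled SMARCB1 +/+ had received doxycycline at 1 µg/ml for 1, 3 or 7 days, and those labelled SMARCB1 -/- were taken on day 0. There were 2 replicates a day, 8 samples in all. Nothing in the labels says whether the inducible line is a single clone, and the effect of SMARCB1 and that of the drug cannot be told apart in this design. With a single deposited list for each day, differences between days have neither a replicate error nor a p-value here. Peak names in 3 lists give the induced day, and the remaining list was assigned to day 0 because no other day was left. All results depend on that assignment. Depth was similar: the genome-wide background, which is the read pile-up the caller expects by chance and which was recovered from the lists, was 6.34, 6.04, 6.73 and 6.10 reads on days 0, 1, 3 and 7.

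As a share of its own list, the day 0 regions stood between those found on day 7 only and those found on day 1 only. Of the regions with a peak in the day 0 list, 7.92% (95% interval 7.74 to 8.12, exact Clopper-Pearson) were in no other list. The same share was 9.11% (8.94 to 9.28) for day 1, 12.3% (12.1 to 12.5) for day 3 and 7.67% (7.51 to 7.84) for day 7, from 9780, 14215 and 7694 regions. The interval of day 0 overlaps that of day 7. In covered length the regions were a smaller part: those of day 0 spanned 1.68 Mb, or 3.47% of what the day 0 list covered, and those of days 1, 3 and 7 spanned 4.14%, 5.91% and 3.57% of their lists. The intervals cover counting error only, as if each region were drawn separately. The day 0 list was the shortest, and the order changed at equal list length. When each list was reduced to its 50000 peaks with the highest -log10 q, 6808 regions were found on day 0 only, against 1458, 2694 and 1880 on days 1, 3 and 7 only. As shares of the regions with a peak in each reduced list, these were 13.8%, 2.93%, 5.41% and 3.79%. That reduction left peaks down to a -log10 q of 9.58 on day 0 and only down to 15.3, 17.0 and 13.2 on days 1, 3 and 7, so a weak day 0 peak could lose its partner to it.

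Whether a day 0 peak stood alone went with its strength. The caller's -log10 q was used to sort peaks within each list. It states how unlikely a summit is under its local background after correction for the number of tests, and is not a measure of height. Among day 0 peaks with a -log10 q of 3 to 4, 36.6% (34.8 to 38.5) had no partner on any induced day. The share was 22.4% (21.4 to 23.5) at 5 to 6, 5.24% (4.71 to 5.81) at 8 to 10 and 1.52% (1.29 to 1.78) at 10 to 15. Above 20, 1 of 32372 day 0 peaks was unmatched. The induced lists had the same kind of slope. At 3 to 4 the unmatched share was 42.7%, 50.4% and 35.9% on days 1, 3 and 7, at 8 to 10 it was 5.97%, 11.0% and 5.44%, and above 20 it was 0 of 41026, 6 of 44028 and 2 of 36337 peaks. In each class from 3 to 10 the day 0 share was below those of days 1 and 3 and nearer to that of day 7.

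**Figure D1:**
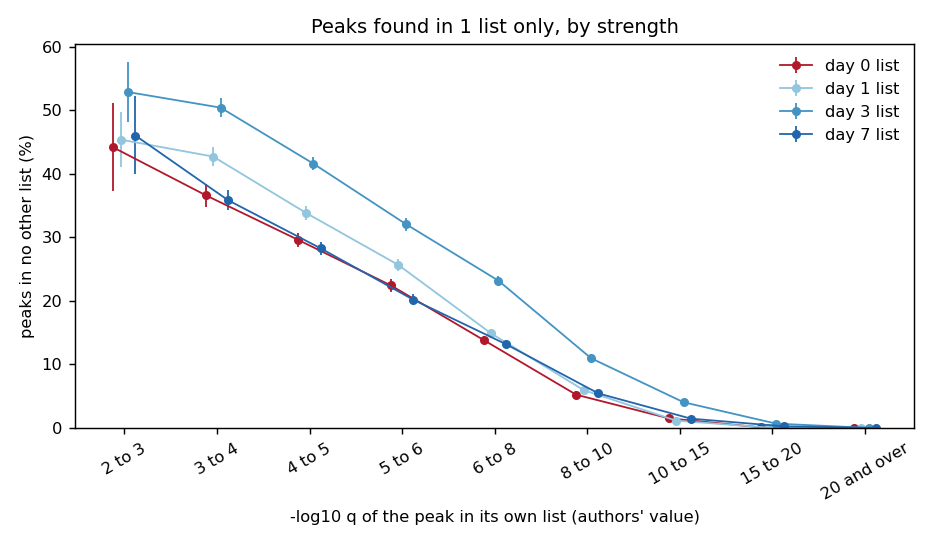
Share of peaks found in no other list (y axis, %) by the authors' -log10 q (x axis, classes), for the lists of days 0, 1, 3 and 7. Bars are exact 95% intervals. The day 0 points drop to 1.52% at 10 to 15 and lie close to those of day 7, with the day 3 points highest.

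Among weak day 0 peaks, the balance between those called on no induced day and those called on all 3 changed with strength. At a -log10 q of 3 to 4, 36.6% were in no induced list and 29.8% in all 3. Of the day 0 peaks with a -log10 q of 4 to 5, 29.6% were in no induced list, 18.2% in 1, 17.7% in 2 and 34.6% in all 3. Among day 3 peaks of the same strength, 41.6% were in no other list, 28.0% in 1, 17.2% in 2 and 13.1% in all 3. Day 1 and day 7 peaks of that strength were in all other lists in 12.8% and 20.5% of cases. At this strength, peaks of each induced list thus had partners in all other lists less often than day 0 peaks. The lists differ in length, and for the induced lists the others include the shortest one, that of day 0.

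The regions were low and narrow. Their median fold was 2.87 (10th to 90th percentile 2.17 to 3.54), against 3.81 over all day 0 peaks. Fold is the authors' ratio of summit to local background, each with 1 read added. Their median width was 250 bp (200 to 366), against 454 bp over the whole list, and 641 of them (10.3%) had exactly the 200 bp that was the shortest width in any list. Over all day 0 peaks 2.04% had that width, and among regions found on days 1, 3 and 7 only the shares were 9.56%, 8.08% and 9.81%. Summits of the day 0 regions held a median of 28 reads, with a lowest value of 18 and a highest of 154, against 57 over all day 0 peaks. A fold of at least 4 was reached by 157 of the 6227 (2.52%), against 45.9% of all day 0 peaks. A -log10 q of at least 10 was reached by 160 (2.57%), against 60.6% of all day 0 peaks. The rule used the calls that these values decide, so the gaps are a description only.

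Regions found in 1 induced list only had nearly the same shape. Median folds were 2.87 for day 0 only and 2.91, 2.95 and 3.05 for days 1, 3 and 7 only, and median widths were 250, 255, 265 and 256 bp. Median summits held 28, 27, 28 and 26 reads. The upper ends differed more than the middles. The share with a fold of at least 4 was 2.52% (2.15 to 2.94) on day 0 and 2.36% (2.07 to 2.68) on day 1, but 5.06% (4.70 to 5.43) on day 3 and 5.30% (4.81 to 5.83) on day 7. Over all peaks of the 4 lists that share was 45.9%, 46.5%, 45.7% and 47.1%. A -log10 q of at least 10 was reached by 2.57%, 1.79%, 5.09% and 3.22%, against 60.6%, 59.3%, 59.7% and 59% of all peaks. Folds of at least 5 were found in 7 of the day 0 regions (0.112%), against 6 (0.0613%), 64 (0.450%) and 29 (0.377%) of those found on days 1, 3 and 7 only. Over all peaks of the lists of days 0, 1, 3 and 7, that fold was reached by 31.4%, 31.0%, 29.4% and 30.2%. The summit lay near the middle of the peak in all 4 classes, at a median of 48.3% of the width for day 0 only and 48.8%, 48.3% and 48.4% for days 1, 3 and 7 only.

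**Figure D2:**
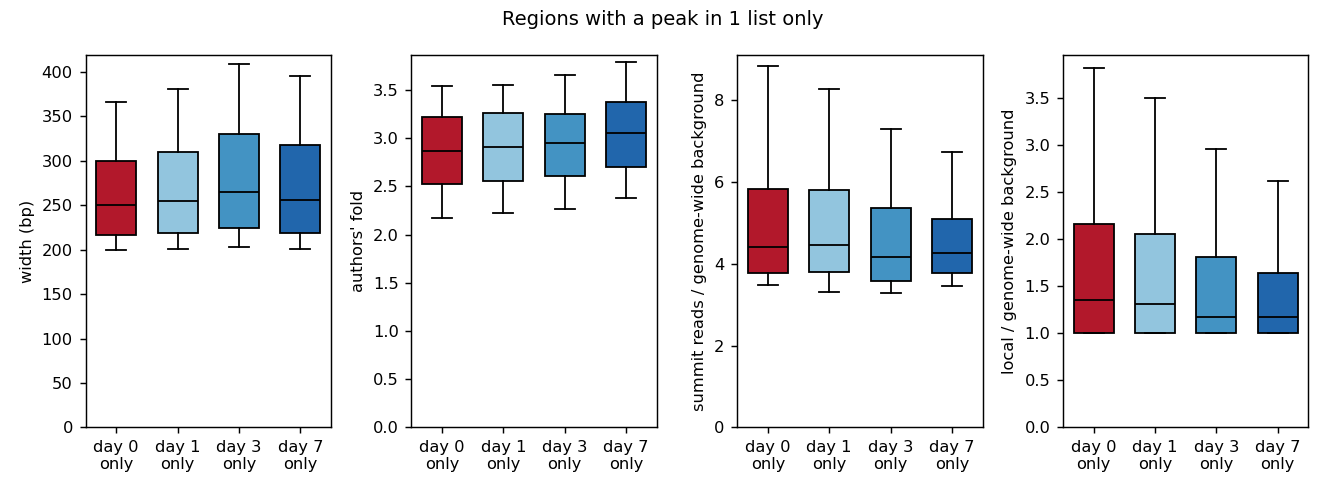
Width (bp), authors' fold, summit reads over genome-wide background and local over genome-wide background for regions with a peak in 1 list only, by day. Boxes show the quartiles and the median, whiskers the 10th and 90th percentiles over regions. Median folds run from 2.87 to 3.05, and the day 0 box for local background reaches highest.

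Where the local background was lowest, the median summit of these regions stood not far above the weakest called peaks. At 1603 of the regions the local background was the genome-wide one, and their summits held 18 to 37 reads with a median of 23, or 3.63 times that background. The weakest 5% of all peaks called at the genome-wide background held at most 20, 21 and 21 reads on days 1, 3 and 7, or 3.31, 3.12 and 3.44 times the background of their list. A summit at the median of these regions would reach that weakest 5% at 0.913, 0.861 and 0.949 of its scaled day 0 height. This holds only where its local background stayed the genome-wide one, which is not known. The lowest summits called at that background held 16, 17 and 18 reads on days 1, 3 and 7. They were 2.65, 2.53 and 2.95 times the background of their list, so the weakest 5% is not the limit of the caller. On the same background, the median summit of regions found on days 1, 3 and 7 only was 3.64, 3.57 and 3.77 times the genome-wide value. How high the day 0 regions stood on the induced days is not given by the lists, so no fold change from day 0 could be formed for them.

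The regions ran from isolated sites on quiet background to low peaks inside busy stretches. The local background, averaged by the caller over about 10000 bp, was the genome-wide one at 25.7% of the regions, and at least 5 times that at 384 (6.17%). On the quiet background the median fold was 3.27, and in the busy stretches it was 1.89, with summits of 59 to 154 reads and a median of 81. The corresponding share at 5 times or more was 4.51%, 2.87% and 2.03% among regions found on days 1, 3 and 7 only. Busy stretches were also more frequent in the day 0 list as a whole, where they held 16.7% of peaks, against 13.6%, 9.98% and 10.9% on days 1, 3 and 7. Peaks of equal strength were less often unmatched there: among day 0 peaks with a -log10 q of 4 to under 6, 29.5% (27.9 to 31.2) stood alone at the genome-wide background and 18.3% (16.0 to 20.7) at 5 times or more. On day 7 the same shares were 32.3% and 8.10%, on day 1 29.0% and 19.2%, and on day 3 46.4% and 22.1%.

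**Figure D3:**
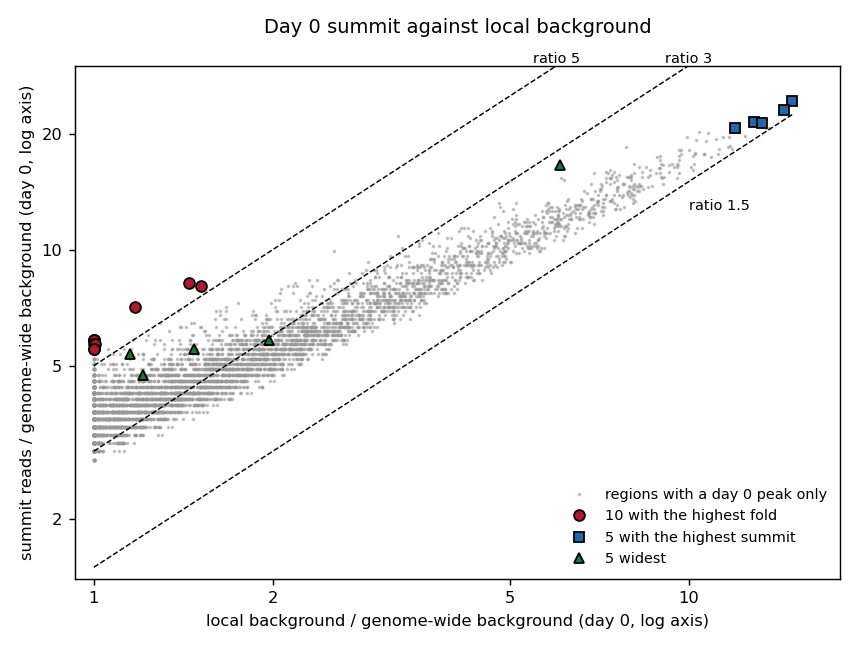
Day 0 summit reads (y axis) against local background (x axis), both divided by the genome-wide background and on log axes, for the 6227 regions (grey). Dashed lines mark equal ratios of summit to local background, without the added read of the fold. Marked are the 10 regions with the highest fold, at the left above the cloud, the 5 with the highest summit, at the upper right, and the 5 widest.

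The highest fold stood at chromosome 15, 79007245 to 79007573 (hg19), where the day 0 summit held 45 reads over a local background of 7.44 and the fold was 5.45. The nearest peak on each day was an always open region about 5 kb to the left, which held 111, 116, 107 and 112 reads on days 0, 1, 3 and 7. That neighbour was therefore of nearly constant height while the region itself was called on day 0 alone. The region at chromosome 10, 4858081 to 4858386, held 51 reads with a fold of 4.91. An always open region ended 217 bp to its left on day 0 and held 75, 83, 77 and 65 reads on days 0, 1, 3 and 7. The local background at that neighbour was 9.82 reads on day 0 and 11.7, 13.5 and 12.3 reads on days 1, 3 and 7. Further to the left, peaks with 57, 77 and 59 reads were called on days 1, 3 and 7, and none there on day 0.

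A further 4 of the 10 highest folds belonged to sites far from any other peak. At chromosome X, 17379751 to 17380099, the summit held 37 reads with a fold of 5.17, and no other peak of any list lay within 118 kb. At chromosome 10, 119517495 to 119517852, with the same 37 reads and fold, the nearest other day 0 peak was 16057 bp away and the nearest induced peaks 47392, 47407 and 72963 bp away on days 1, 3 and 7. The regions at chromosome 9, 2200052 to 2200433, and chromosome 20, 62810938 to 62811262, held 36 and 35 reads with folds of 5.04 and 4.90. Their nearest induced peaks lay 17911 bp and 14403 bp away, both on day 3. On chromosome 20 another day 0 peak, itself found on day 0 only, lay nearer, at 12474 bp.

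At 3 others of the 10, peaks on the induced days also stood nearby that were higher than on day 0 or absent then. At chromosome 14, 55280907 to 55281249, the region held 52 reads on day 0 with a fold of 5.21 and the highest -log10 q of all, 20.1. An always open region 4142 bp to its right held 33 reads on day 0 at its nearest peak, and 136, 140 and 110 reads at its highest peak on days 1, 3 and 7. The local background at those peaks was 8.54 reads on day 0 and 18.9, 20.6 and 15.7 reads on the induced days.

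Chromosome 18, 20426070 to 20426403, held 37 reads on day 0 with a fold of 5.17, and no other day 0 peak lay within 23 kb. On the induced days a gained region appeared about 1 kb to its right, with 32, 74 and 47 reads on days 1, 3 and 7, and another about 4 kb to its left, with 78, 121 and 77 reads. A peak 3 kb to the right was called on days 1 and 3, with 56 and 67 reads. The site itself, between these, had no call. The local background at the peak on the right was 10.6, 15.5 and 9.24 reads on days 1, 3 and 7, against 6.34 at the region on day 0. Those induced values, not scaled for depth, were taken under the gained peak, whose own reads add to them. The background at the region itself on those days is not known.

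Chromosome 6, 17200611 to 17200970, repeated this arrangement, with 35 reads and a fold of 4.90 on day 0. A gained region began 387, 425 and 328 bp to its right on days 1, 3 and 7 and held 70, 96 and 47 reads, over local backgrounds of 12.2, 16.1 and 10.4. The last of the 10, at chromosome 6, 26687213 to 26687674, held 36 reads with a fold of 5.01, and a peak 4294, 4394 and 4408 bp to its left was called on days 0, 1 and 3 with 30, 29 and 31 reads.

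**Figure D4:**
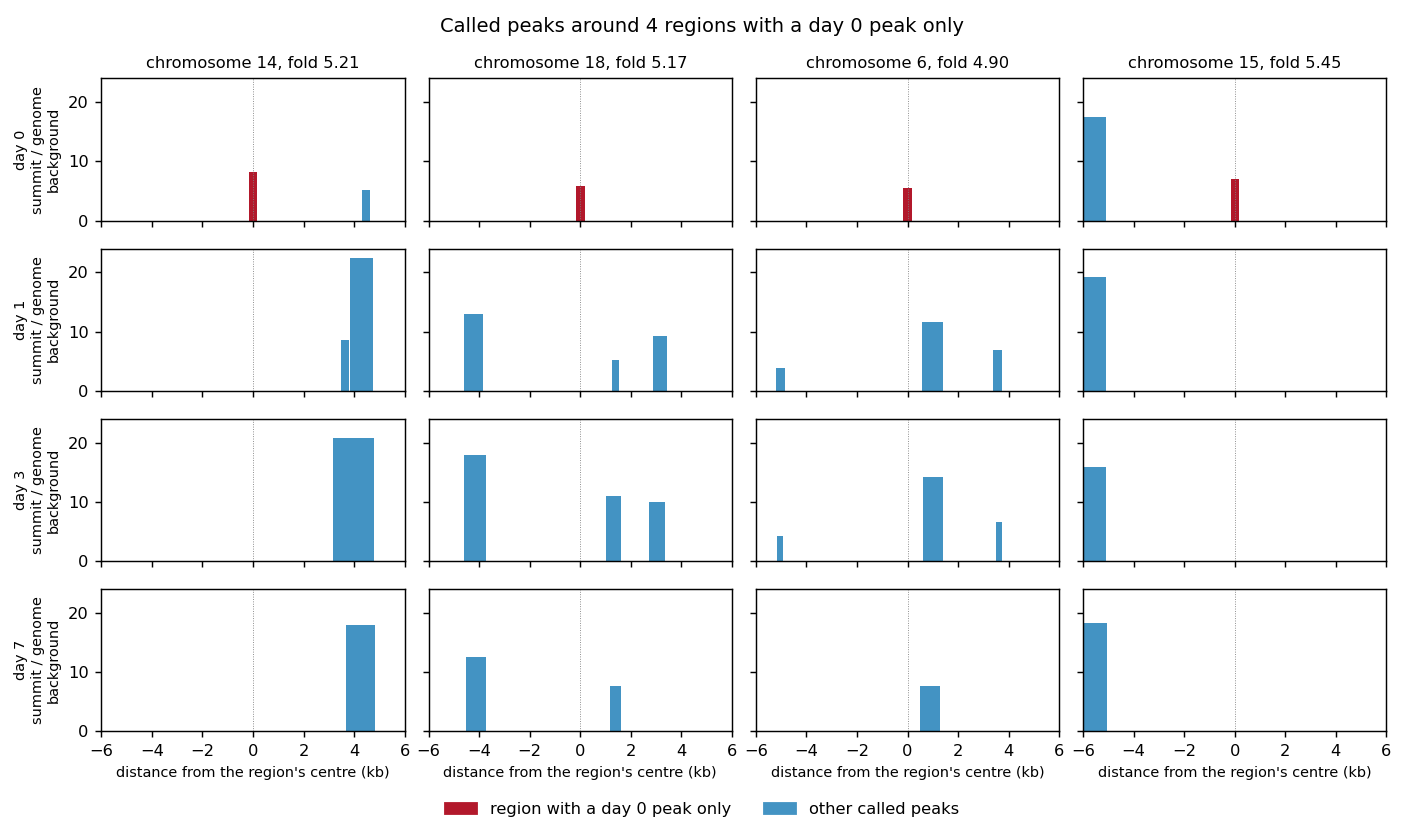
Called peaks within 6 kb of 4 of the regions, 1 column each, on days 0, 1, 3 and 7 (rows). The x axis is the distance from the region's centre in kb, bar width is peak width and bar height is summit reads over genome-wide background. On chromosomes 14, 18 and 6 peaks stand beside the empty centre on the induced days, and on chromosome 15 the neighbour at the left edge stands at 15.9 to 19.2 times the background on all 4 days.

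Gained regions within 1000 bp were the exception. A gained region, meaning one without a day 0 peak and with a peak on days 1, 3 and 7, was the nearest induced peak within 1000 bp on all 3 days for 133 of the 6227 regions (2.14%, 1.79 to 2.53). Their median fold was 2.80 and their highest 4.90. Beside them the local background was a median of 0.23, 0.24 and 0.16 higher in log2 than at the region on day 0 (days 1, 3 and 7, each scaled by its genome-wide value). The induced values were taken under the gained peak, whose own reads add to them. The background at the region itself on those days is not known. An example with a high neighbour, chosen after its values were seen, was chromosome 4, 89712556 to 89712792, where the region held 26 reads on day 0 and the gained peak beside it held 97, 144 and 85 reads on days 1, 3 and 7. A gained region lay within 1000 bp of 2.63% (2.25 to 3.06) of the day 0 regions. This share was lower than the 3.47% (3.11 to 3.85), 4.22% (3.90 to 4.56) and 4.41% (3.96 to 4.89) of the regions found on days 1, 3 and 7 only, and higher than the 1.92% (1.82 to 2.04) of those open on every day.

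An induced peak lay within 1000 bp for 25.5% (24.4 to 26.6) of the regions on at least 1 induced day and for 12.8% (12.0 to 13.7), or 800 regions, on all 3. Within 10000 bp the first share was 85.1%. A count that can be set beside the other classes is that of any other merged region within 1000 bp, which was 27.2% for day 0 only, against 28.4%, 24.7% and 28.0% for days 1, 3 and 7 only and 23.0% for regions open on every day. At those 800 the local background under the neighbouring peak could be set against that of the region on day 0. The log2 difference had a median of 0.03 (SD over regions 0.29) for day 1, -0.06 (0.37) for day 3 and -0.06 (0.29) for day 7. A background at least 1.5 times that of day 0 on all 3 days was found at 28 of the 800 (3.50%), and one lower by that factor on all 3 days at 0. No local background lay below the genome-wide one. Regions under 1.5 times that value could therefore not show such a drop, and the counts of rises and drops are not comparable. The part of the local background in the loss of calls was not tested.

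Always open regions were somewhat closer to the day 0 regions than to the other single-list regions. The median distance to one was 8366 bp for day 0 only, and 9183, 11048 and 12051.5 bp for days 1, 3 and 7 only. Within 1000 bp lay an always open region for 11.3% (10.5 to 12.1), against 9.21% (8.65 to 9.80), 7.46% (7.03 to 7.90) and 8.10% (7.50 to 8.73). Always open regions themselves had another one within that distance in 12.5% of cases. The higher local background of the day 0 list, given above, goes with this difference, and its part was not tested.

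The heights of always open neighbours were not used to choose the regions. Around the day 0 regions, 5569 always open regions lay within 10000 bp. Their summits, scaled by the genome-wide background, differed from day 0 by a median log2 of 0.09 (SD over regions 0.38), -0.08 (0.44) and -0.05 (0.34) on days 1, 3 and 7. Over all 60786 always open regions the medians were 0.08, -0.08 and -0.04. Local background at the neighbours differed from day 0 by a median log2 of 0.01, -0.11 and -0.09, and over all always open regions by 0.00, -0.04 and -0.04. Among always open regions with 2 to 5 times the genome-wide background on day 0, these medians were 0.02, -0.11 and -0.10 near the day 0 regions and 0.02, -0.11 and -0.10 overall.

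The 5 highest summits among the regions stood in busy stretches beside other peaks. The highest lay at chromosome 19, 42785541 to 42785805, with 154 reads over a local background of 94.7, so that its fold was only 1.62. An always open region 560 bp to its left held 192, 183, 185 and 172 reads on days 0, 1, 3 and 7. The next were at chromosome 19, 50369671 to 50369871, with 146 reads and a fold of 1.58, and at chromosome 19, 50192051 to 50192274, with 136 reads and a fold of 1.66. Both others were on chromosome 16, at 89990419 to 89990649 with 135 reads and at 89762648 to 89762905 with 131 reads. At the last of these, the always open neighbour on the left held 140, 116, 113 and 124 reads over local backgrounds of 67.4, 60.8, 57.5 and 58.1 on days 0, 1, 3 and 7. All 5 had another day 0 peak within 560 bp.

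The widest region was an exception among narrow ones. It covered 964 bp at chromosome 14, 68638848 to 68639811, with 105 reads, a local background of 38.5 and a fold of 2.68. About 1 kb to its right a region with no day 0 peak was called on days 1 and 3, with 49 reads on each, over local backgrounds of 21.2 and 21.1, and the always open region 2866 bp to its left held 142 reads on day 0 and 123 on day 7. The other 4 widest spanned 733 to 801 bp with 30 to 37 reads, at chromosome 16, 83637459 to 83638259, chromosome 2, 60713274 to 60714020 and 170218299 to 170219045, and chromosome 3, 59491693 to 59492425. Beside the second one on chromosome 2, an always open region 1534 bp to the right held 49 reads on day 0 and 91, 103 and 74 on days 1, 3 and 7.

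Peaks on both sides of the rule's border had similar heights. Among the 6227, 19 lay within 10 bp of an induced peak, with a median fold of 2.96 and a median of 28 reads, and 22 day 0 peaks were left out because they shared 10 bp or less with one, with a median fold of 2.72 and 26.5 reads. At chromosome 9, 126377486 to 126377843, and chromosome 10, 6162878 to 6163141, the day 0 peak ended exactly where a day 1 peak began or began where one ended. They held 28 and 40 reads with folds of 3.95 and 3.01. The smallest overlaps outside the rule were 2 bp, at chromosome 17, 48382065 to 48382329, and chromosome 17, 67910621 to 67911066, with 25 and 33 reads and folds of 2.84 and 2.83.

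Joining regions with a day 0 peak only that lay no more than 10000 bp apart put 693 of the 6227 (11.1%) into 334 groups, of which 23 held at least 3. The shares for days 1, 3 and 7 only were 17.0%, 18.3% and 13.8%, from larger numbers of regions, so the classes are not matched for density. The largest groups held 4 regions. One spanned 15.7 kb at chromosome 2, 150961663 to 150977389, with folds of 2.06 to 2.56 and 32 to 67 reads, and the other spanned 14.5 kb at chromosome 6, 82897219 to 82911732, with folds of 2.13 to 2.45 and 34 to 40 reads. Each surrounded 1 always open region. The group of 3 with the highest fold, 3.93, lay at chromosome 11, 48105959 to 48119714, and held no always open region.

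Chromosomes differed in the share of day 0 regions that were found on day 0 only. Over 23 chromosomes, with Y left out, the share ran from 5.08% (4.06 to 6.27) on X to 9.78% (8.42 to 11.3) on chromosome 13, from 82 and 169 regions. Chromosome 13 also had the highest share on days 3 and 7, at 14.5% and 9.54%, and stood next to highest on day 1, at 10.1%. Chromosome 19, which is dense in genes, had the lowest share in each induced list, at 7.04%, 8.26% and 3.99% on days 1, 3 and 7, while its 7.39% (6.59 to 8.25) on day 0 was the 4th lowest. X was low on days 1 and 7 as well, at 7.30% and 6.20%, and the 8th lowest on day 3, at 12.1%.

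**Figure D5:**
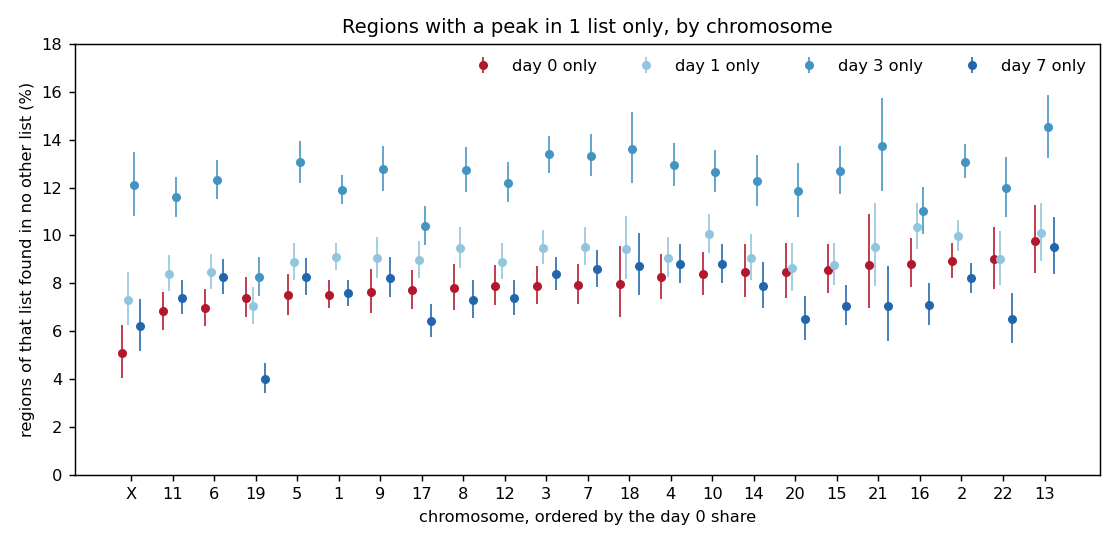
Share of each list's regions found in no other list (y axis, %) by chromosome (x axis, ordered by the day 0 share), for days 0, 1, 3 and 7, with exact 95% intervals. The day 0 points run from 5.08% on X to 9.78% on chromosome 13, and chromosome 19 is lowest for each induced day.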

How the data were processed

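ATAC-seq of 8 samples (2 replicates on each of 4 days) was analysed from 1 deposited file of narrowPeak layout with 411408 peaks in 4 lists. Groups were taken from the sample titles, and the lists were matched to days by their peak names. The submitters' processing notes name MACS2 2.1.1.20160309, Bowtie2, deepTools and hg19. Read filtering, any transposase offset and any pooling of replicates: not given in the sources used here. Each deposited fold is a ratio of summit to local background, each with 1 read added. Each deposited peak also has the caller's -log10 p and, after correction for many tests, -log10 q. In 99.96% of peaks the authors' score was 10 times the -log10 q without its decimals. The authors' summit position is another value, an offset in bp.

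Summit reads and local background were recovered from fold and -log10 p: 1 whole number of reads fitted every peak within 0.000863 in -log10 p, and the next best was off by at least 0.0272. The most frequent background of a list was taken as genome-wide. Recovery and joining were tested on simulated data, made with the same relation of reads, fold and p and with widely spaced regions. That test checks the code only. It cannot show that the deposited values follow this relation, or how joining acts near the border of the rule. Shares have exact Clopper-Pearson 95% intervals. No analysis across samples was possible from 1 list per day.

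Regions were named by a rule: the 10 highest folds, 5 highest summits, 5 widest, largest groups, and those nearest the border of the rule. Members, lists and rules were chosen with earlier results of these data known. The gene table at hand is of another build, so genes, promoters, motifs and sequences at the regions were not analysed here. Tools were Python 3.11.15, NumPy 2.4.6, pandas 2.3.3, SciPy 1.17.1 and matplotlib 3.10.9. Coordinates are 1-based hg19.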

Additional observations from a re-analysis of the deposited data

How the results depend on the processing

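No paired analysis was possible because the lists hold no value per replicate, and for the same reason no replicate could be left out. Counts of regions found in 1 list only are given for days 0, 1, 3 and 7 in that order. Shares in brackets are of the regions with a peak in each list at that setting. A limit of 10 on -log10 q in every list gave 1894, 3391, 6576 and 2362 (3.91%, 5.25%, 9.43% and 3.92%). On the counted list alone it gave 160, 175, 724 and 248 (0.330%, 0.271%, 1.04% and 0.411%). A limit of 5 on the counted list alone gave 3315, 5170, 8013 and 4107 (4.72%, 5.39%, 7.85% and 4.58%). Keeping the 80744 peaks with the highest -log10 q in each list gave 13600, 3997, 4815 and 5025 (17.3%, 5.01%, 6.02% and 6.33%). That setting kept all day 0 peaks, down to a -log10 q of 2.44, but cut days 1, 3 and 7 at 6.89, 7.88 and 6.33. Weak day 0 peaks could thus lose their partners to it. Keeping 50000 gave 6808, 1458, 2694 and 1880 (13.8%, 2.93%, 5.41% and 3.79%), again with unequal limits. With a reciprocal overlap of at least 50%, counted in peaks, day 0 had 10701 and day 7 12853. Without the day 1 list, day 3 had 22815, and without the day 3 list, days 1 and 7 had 18442 and 14737. The day 0 count was 8793, 7817 and 7486 without the lists of days 1, 3 and 7, where fewer lists can hold a partner. Joining peaks across gaps of up to 1000 bp gave 4578 on day 0. The share of day 0 regions near an induced peak was 8.13% at 250 bp and 85.1% at 10000 bp, and the share with another such region was 1.99% at 1000 bp and 0.899% at 250 bp. Leaving out peaks of the shortest width moved the median widths by 8 to 9 bp. A distance of 2000 bp for always open neighbours, chosen after seeing the data, gave median log2 summit differences of 0.10, -0.07 and -0.04 on days 1, 3 and 7. Planned settings for genes and sequences at the regions were not run. Summits of 18 to 154 reads limit what can be said of single regions, and the spread between replicates is not known.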

Other observations

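Some regions with a day 0 peak only stood out by -log10 q, which the rule for naming did not use, and were chosen after their values were seen. At chromosome X, 132181475 to 132181911, the region held 63 reads with a -log10 q of 16.5, beside an always open region with 51, 50, 43 and 45 reads on days 0, 1, 3 and 7. At chromosome 4, 4273698 to 4273985, the region held 44 reads with a -log10 q of 15.1, and its nearest induced peak was one found on day 3 only, 877 bp away with 30 reads.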
